A study of Mus musculus with 4 samples.

Results

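The genes described here encode the synaptic vesicle and the machinery that docks, fuses and retrieves it. They were chosen by symbol from the known parts of that machinery, and all 46 were found among the 23874 genes of the count table. By textbook expression, 31 are neuron-restricted, 8 are expressed in many cell types and 7 are mixed, meaning expressed in neurons and also in glia or other secretory cells.

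RNA was sequenced from engineered neural tissue (ENT) of the mouse, made by setting neurospheres, the floating aggregates in which neural stem cells grow, in Matrigel, a gel of basement membrane proteins. The EF tissue was exposed to a field of 150 mV/mm, 30 min a day for 3 days, and kept for 7 more days, whereas the noEF tissue was not stimulated. Both groups grew in the same medium with N2 and B27 supplements and 20 ng/ml bFGF, a growth factor that keeps neural progenitors dividing. The labels state 3 replicates in a group, of which 2 libraries of EF and 2 of noEF were analysed here. Replicate numbers follow the sample titles, and EF 2 is the library named E3. The series design speaks of stem cell suspensions as the control where the sample labels give ENT. No strain, age or sex of the source animals is stated. Separate cultures are not stated either, so the p-values measure the spread between these libraries, which may be technical.

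A synaptic vesicle fuses when a SNARE protein in its membrane (Vamp) zips together with SNAREs of the plasma membrane (syntaxin and a SNAP-25 relative). Munc13 and RIM proteins of the active zone prepare the vesicle, complexins hold the assembled SNAREs, and calcium binding to synaptotagmin triggers fusion within the nerve terminal. Most of these proteins belong to families whose other members serve ordinary membrane traffic in every cell, so a dividing progenitor carries part of the list without making synapses.

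The libraries held 33748880 to 34554537 counts, so that the limit set by a count of 0 (3 counts, counting error only) was 0.0840 to 0.0922 CPM, which is counts per 1000000 counts of a library. Markers of progenitors, astrocytes and the oligodendrocyte lineage were abundant and those of mature neurons scarce. The 8 markers of neural stem cells and radial glia summed to 8062 and 8117 CPM in EF and to 9375 and 9143 CPM in noEF, with Fabp7 and Sox9 called lower. The 8 oligodendrocyte lineage markers, mostly Olig1, summed to 2450 and 2797 CPM in EF and to 2568 and 2412 CPM in noEF, with Pdgfra called lower. Of 4 secretory granule genes, which neuroendocrine cells and astrocytes can express, Scg2 was called higher (log2 fold change 1.18) and Scg3 lower (-0.42). The 12 neuron markers summed to 216 and 216 CPM in EF and to 210 and 206 CPM in noEF, mostly through Gap43, a growth-cone protein that progenitors and glia also make. None of the 10 neuron markers tested was called by edgeR at an adjusted p under 0.05. An unadjusted p under 0.05 was reached by 2 (20%, beside 23.8% of all genes tested). Both were lower in EF, Dcx at a log2 fold change of -0.46 and Nefm at -1.78. By sign, 6 of the 10 were higher in EF and 4 lower. Stmn2, a defining neuronal gene, had no count in any library, and Rbfox3 (NeuN) stood at 0.672 and 1.86 CPM in EF and at 1.20 and 1.67 CPM in noEF. Elavl3, Dcx, Elavl4 and Tubb3 were higher, averaging 31.5, 17.7, 11.8 and 11.6 CPM over all libraries. Celf4, Elavl2 and Nefm averaged 2.63, 2.00 and 1.17 CPM, and Nefl and Myt1l under 1 CPM. Of the 6 microglial markers, 5 had no count in any library. The 7 astrocyte markers summed to 2578 and 2569 CPM in EF and to 3618 and 3684 CPM in noEF, with 4 called lower, and all 4 cycling-cell markers were called higher, summing to 584 and 528 CPM in EF and to 294 and 305 CPM in noEF. In bulk RNA, fewer cells of a type and less RNA per cell cannot be told apart, and the part these shifts play in the values below was not tested.

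Levels of different genes are compared per length, as CPM scaled by TMM (edgeR's correction for library composition) and divided by the kilobases of exon in the gene. On that scale the 46 genes spanned from no count at all to 121 CPM per kilobase. The widely expressed members had a median of 8.62 CPM per kilobase, with a range of 1.48 to 67.4, while the neuron-restricted members had a median of 0.744, with a range of 0 to 17.2. The mixed members had a median of 3.27 CPM per kilobase. In all, 7 members averaged under 1 CPM, of which 6 were neuron-restricted (Rims1, Slc17a7, Sv2b, Syn3, Syt2 and Slc17a6) and 1 was mixed (Syt4). The order at the top was Syt11, Vamp3, Vamp2, Napa, Stx4a, Sv2a, Cplx2, Amph, Rab3a and Sypl. Within it Vamp2 overlapped Napa, and Stx4a overlapped Sv2a, in their per-kilobase values over the 4 libraries. Sv2a, Cplx2, Amph and Rab3a also overlapped one another. Within each library, however, Vamp2 stood above Napa, Stx4a above Sv2a, and Sv2a above Cplx2, Amph and Rab3a. The order of Cplx2, Amph and Rab3a changed between libraries, so these neighbours are not ordered beyond their spread.

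**Figure D1:**
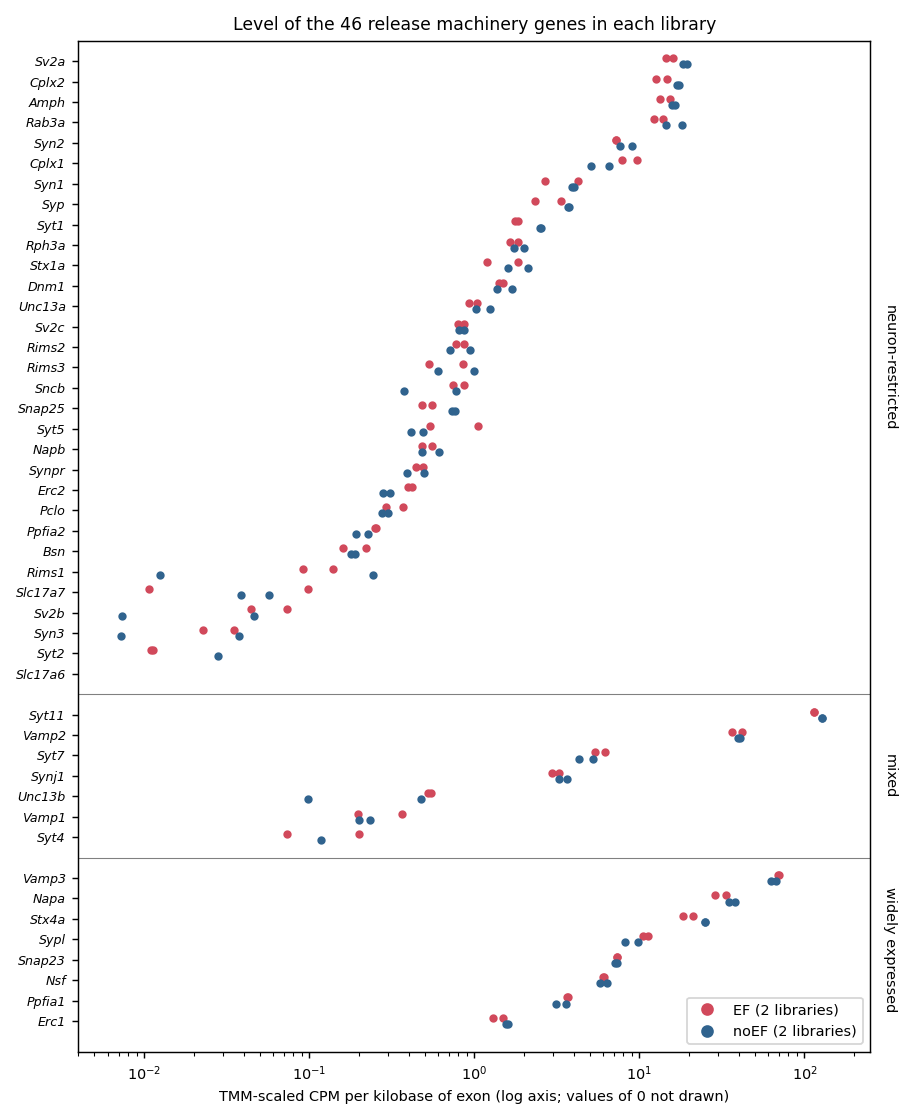
Level of each of the 46 genes in the 2 EF and 2 noEF libraries, as TMM-scaled CPM per kilobase of exon on a log axis, with points for libraries and genes ordered by mean within each class. The widely expressed genes sit between 1.48 and 67.4 CPM per kilobase on average, whereas the neuron-restricted genes run from 17.2 (Sv2a) down to 0 (Slc17a6, no point drawn).

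The contrast of EF with noEF was tested on the counts by the quasi-likelihood method of edgeR, and p-values were adjusted by Benjamini-Hochberg over all 14263 genes that passed a filter on low counts. Of the 46 members, 44 passed the filter on low counts and none was called at an adjusted p under 0.05, where 8.82% of all genes tested were called (3.83% higher, 4.99% lower). At an unadjusted p under 0.05 there were 8 members, 2 higher and 6 lower, or 18.2% of those tested, beside 23.8% of all genes (11.3% higher, 12.5% lower). DESeq2 called 1 member, Sv2a, lower (beside 12% of all genes), and limma-voom called 0 (beside 7.19%). The median log2 fold change (EF minus noEF) of the 44 was -0.023, beside 0.0087 over all genes tested. Both EF libraries lay above both noEF libraries for 9 tested members (20.5%, beside 27.6% of all genes) and below them for 12 (27.3%, beside 26.8%). No member passed the adjusted threshold, and a p that misses it does not show that the groups are alike.

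The medians of the neuron-restricted and the widely expressed genes lay near 0 on the log2 fold-change scale. Among neuron-restricted members, 29 were tested, 11 had a positive and 18 a negative log2 fold change, and the median was -0.073. Among the 8 widely expressed members, 5 were positive and 3 negative, with a median of 0.0071, and the 7 mixed members had a median of 0.28. The mixed median was the value of Syt7, with Vamp1, Unc13b and the sparsely counted Syt4 above it. The neuron-restricted genes together summed to 434 and 429 CPM in EF and to 492 and 500 CPM in noEF, which is 432 ± 3.87 CPM on average in EF against 496 ± 5.76 CPM in noEF (mean ± SD of 2 libraries each). EF was thus 0.869 of noEF, and the groups did not overlap, with Sv2a, Cplx2 and Amph giving much of the sum. The same ratio over all genes of the count table was 0.942, also with EF below noEF without overlap. Scaled by library totals in place of TMM, the same sums were 449 and 440 CPM in EF and 475 and 488 CPM in noEF, and the median log2 fold change of these genes was 0.012, beside 0.095 over all genes. The widely expressed genes summed to 601 and 614 CPM in EF and to 598 and 623 CPM in noEF, where the groups overlapped. With TMM the mixed genes, mostly Syt11, summed to 817 and 840 CPM in EF and to 880 and 898 CPM in noEF. Their sum was thus lower in EF without overlap (0.932 of noEF), although their median log2 fold change was positive. The class names come from textbook expression and were not tested in these cultures. Sv2a, Cplx2 and Amph averaged 17.2, 15.3 and 15.2 CPM per kilobase. That was above every neuron marker listed but Gap43, the next being Tubb3 at 6.21. Which cells made the RNA of the neuron-restricted sum was not tested.

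**Figure D2:**
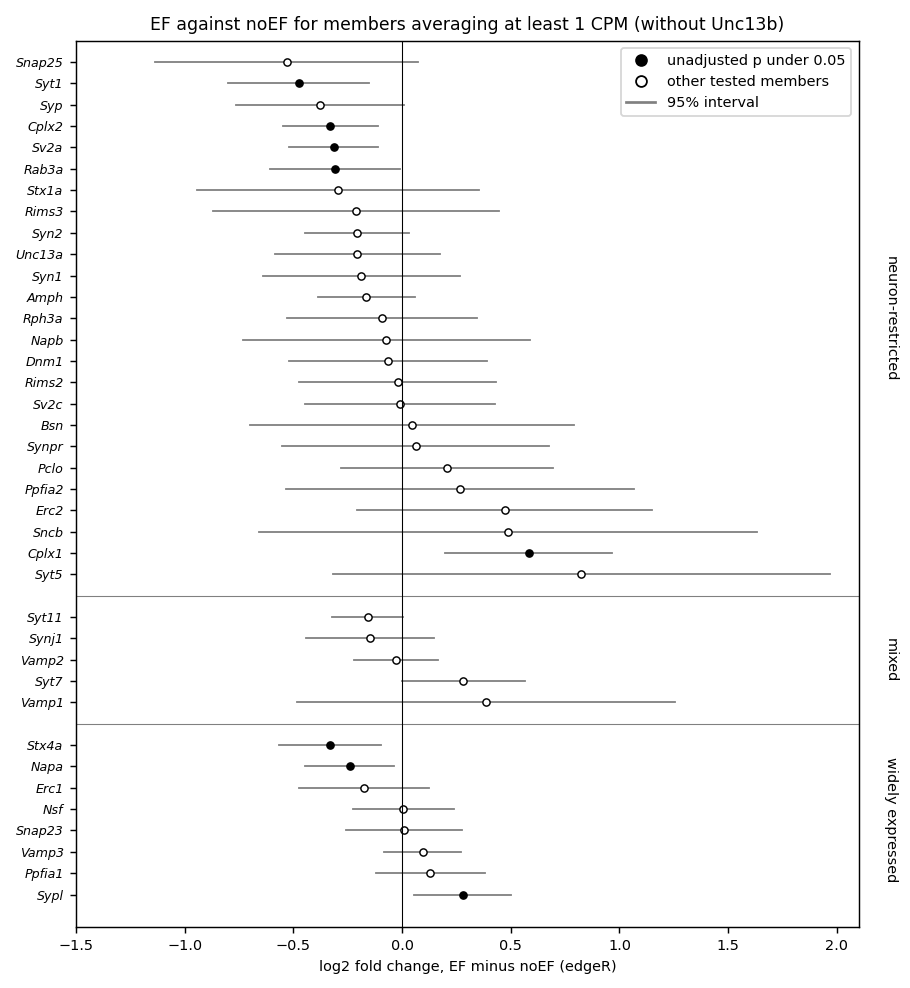
Log2 fold change of EF over noEF (edgeR, TMM) with its 95% interval for the members averaging at least 1 CPM, by class, without Unc13b, whose interval runs past the axis. Filled points mark the 8 members with an unadjusted p under 0.05, of which Cplx1 and Sypl are above 0 and Sv2a, Cplx2, Syt1, Stx4a, Napa and Rab3a below; none had an adjusted p under 0.05.

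Among the SNAREs and their disassembly factors, Vamp3, Vamp2 and Napa were the most abundant per length, at 67.4, 39.6 and 33.8 CPM per kilobase. Vamp3 (cellubrevin, the vesicle SNARE of many cell types; chr4:151047300-151057963 on GRCm38) had 202 and 200 CPM in EF and 182 and 194 CPM in noEF. EF lay above noEF, but the log2 fold change of 0.095 ± 0.084 (SE) had an adjusted p of 0.543 in edgeR. Vamp2, the vesicle SNARE of the synapse, had 139 and 159 CPM in EF and 150 and 154 CPM in noEF. The groups overlapped and its log2 fold change was -0.027 ± 0.091 (adjusted p = 0.899, edgeR). Vamp1, its relative of motor nerve terminals, averaged 2.53 CPM over all libraries. Napa, the alpha-SNAP that recruits the ATPase Nsf to spent SNARE complexes, had 109 and 126 CPM in EF and 145 and 133 CPM in noEF. Both EF libraries were lower, by a log2 fold change of -0.24 ± 0.095 (adjusted p = 0.133, edgeR). Its brain form Napb had 3.39 and 3.90 CPM in EF and 3.38 and 4.28 CPM in noEF, overlapping, at -0.073 ± 0.31 (adjusted p = 0.920). Nsf itself averaged 50.6 ± 0.252 CPM in EF and 50.4 ± 3.43 CPM in noEF (mean ± SD of 2 libraries each).

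Of the plasma membrane SNAREs, Stx4a and Snap23 were above their synaptic relatives, at 22.4 and 7.26 CPM per kilobase, beside 1.69 for Stx1a and 0.633 for Snap25. Stx4a, the syntaxin of constitutive and insulin-responsive secretion (chr7:127824294-127849019), had 49.9 and 43.6 CPM in EF and 58.8 and 59.1 CPM in noEF. EF was lower without overlap, with a log2 fold change of -0.33 ± 0.11 and an adjusted p of 0.0735 in edgeR. Stx1a, the synaptic syntaxin, had 3.19 and 4.87 CPM in EF and 5.62 and 4.28 CPM in noEF, overlapping (log2 fold change -0.30 ± 0.30, adjusted p = 0.614, edgeR). Snap25, the synaptic SNAP (chr2:136713453-136782428), had 3.28 and 3.75 CPM in EF and 5.19 and 4.97 CPM in noEF. Both EF libraries were lower, at a log2 fold change of -0.53 ± 0.28, and the edgeR p was 0.0812 before and 0.277 after adjustment. Snap23, its partner in non-neuronal cells, had 31.3 and 31.2 CPM in EF and 30.7 and 31.5 CPM in noEF, with a log2 fold change of 0.0092 ± 0.13 (adjusted p = 0.977).

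Synaptotagmins and complexins held members that leaned in opposite directions. Syt11, a synaptotagmin that does not bind calcium and restrains vesicle retrieval (chr3:88744700-88775164), was the most abundant gene of the list per length, with 595 and 595 CPM in EF and 666 and 663 CPM in noEF. The EF libraries were lower without overlap, yet its log2 fold change of -0.16 ± 0.078 had an adjusted p of 0.230 in edgeR. Syt1, the fast calcium sensor of release (chr10:108497650-109010982), had 15.3 and 14.7 CPM in EF and 21.05 and 20.73 CPM in noEF. Replicates of Syt1 lay close together and the groups apart, with a log2 fold change of -0.48 ± 0.15 and an adjusted p of 0.0631 in edgeR. Syt7, a slower high-affinity sensor, averaged 43.5 ± 4.38 CPM in EF and 35.8 ± 4.96 CPM in noEF (mean ± SD of 2 libraries each), and Syt5 averaged 1.91 ± 0.872 CPM in EF and 1.07 ± 0.132 CPM in noEF. Syt2, a fast sensor of hindbrain and spinal synapses, had 3 and 3 counts in EF and 7 and 0 in noEF and was not tested. Syt4, which like Syt11 does not bind calcium, had 28 and 10 counts in EF and 15 and 0 in noEF.

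Both complexins, the small proteins that clasp assembled SNAREs, lay close to the threshold and on opposite sides of 0. Cplx1 (chr5:108518554-108550024) had 17.2 and 21.03 CPM in EF and 14.4 and 11.1 CPM in noEF. EF was higher in both libraries, with a log2 fold change of 0.58 ± 0.18 (95% interval 0.20 to 0.97) and an adjusted p of 0.0573 in edgeR. Cplx2 (chr13:54371349-54383917) had 72.0 and 61.9 CPM in EF and 85.1 and 83.2 CPM in noEF. EF was lower in both libraries, with a log2 fold change of -0.33 ± 0.10 (95% interval -0.55 to -0.11) and an adjusted p of 0.0569 in edgeR. The intervals of the 2 genes did not overlap each other; the difference between them was not tested.

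Vesicle membrane and vesicle-bound proteins were led by Sv2a, the vesicle glycoprotein that binds the antiepileptic levetiracetam (chr3:96181151-96195521). It had 74.1 and 67.6 CPM in EF and 85.7 and 90.7 CPM in noEF. EF was lower without overlap, with a log2 fold change of -0.32 ± 0.097 (95% interval -0.52 to -0.11) and an adjusted p of 0.0551 in edgeR, the smallest of the list. Its relatives Sv2b and Sv2c were scarce: Sv2c averaged 8.05 CPM over all libraries, and Sv2b had 22 and 13 counts in EF and 2 and 13 in noEF. Syp (synaptophysin, a major vesicle membrane protein; chrX:7638471-7653256) had 12.2 and 17.5 CPM in EF and 19.2 and 19.4 CPM in noEF. The EF libraries were lower but spread, and the log2 fold change of -0.38 ± 0.18 had an adjusted p of 0.225 in edgeR. Sypl, the synaptophysin relative of non-neuronal vesicles, went the other way, with 88.0 and 94.6 CPM in EF and 68.6 and 81.9 CPM in noEF. Its groups did not overlap, and the log2 fold change was 0.28 ± 0.10 with an adjusted p of 0.111 in edgeR.

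The synapsins tether vesicles in reserve behind the active zone. Syn1 (chrX:20860511-20921004) had 8.88 and 13.9 CPM in EF and 12.8 and 13.2 CPM in noEF, so that EF 1 was low and EF 2 above both noEF libraries (log2 fold change -0.19 ± 0.21, adjusted p = 0.649, edgeR). Syn2 was the most abundant synapsin at 7.75 CPM per kilobase, beside 3.70 for Syn1, and averaged 50.6 ± 0.0706 CPM in EF and 58.4 ± 7.15 CPM in noEF (mean ± SD of 2 libraries each). Syn3 had 10 and 15 counts in EF and 15 and 3 in noEF. Rab3a, the GTPase that marks vesicles for release, had 27.3 and 31.1 CPM in EF and 40.1 and 32.2 CPM in noEF. Both EF libraries were lower, narrowly so against noEF 2, at a log2 fold change of -0.31 ± 0.14 (adjusted p = 0.197, edgeR). Its effector Rph3a averaged 8.35 CPM, synaptoporin (Synpr) 4.29 CPM and beta-synuclein (Sncb) 1.48 CPM over all libraries.

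The vesicular glutamate transporters, which fill vesicles of excitatory neurons, were near or at 0. Slc17a6 (VGLUT2; chr7:51622006-51671119) had no count in any library, which allows up to 0.0840 to 0.0922 CPM for counting error alone. Slc17a7 (VGLUT1) had 19 and 2 counts in EF and 10 and 7 in noEF. From the related genes listed below, the GABA transporter Slc32a1 also had no count in any library, whereas the monoamine transporter Slc18a2 had 7.31 and 6.50 CPM in EF and 7.10 and 6.72 CPM in noEF.

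**Figure D3:**
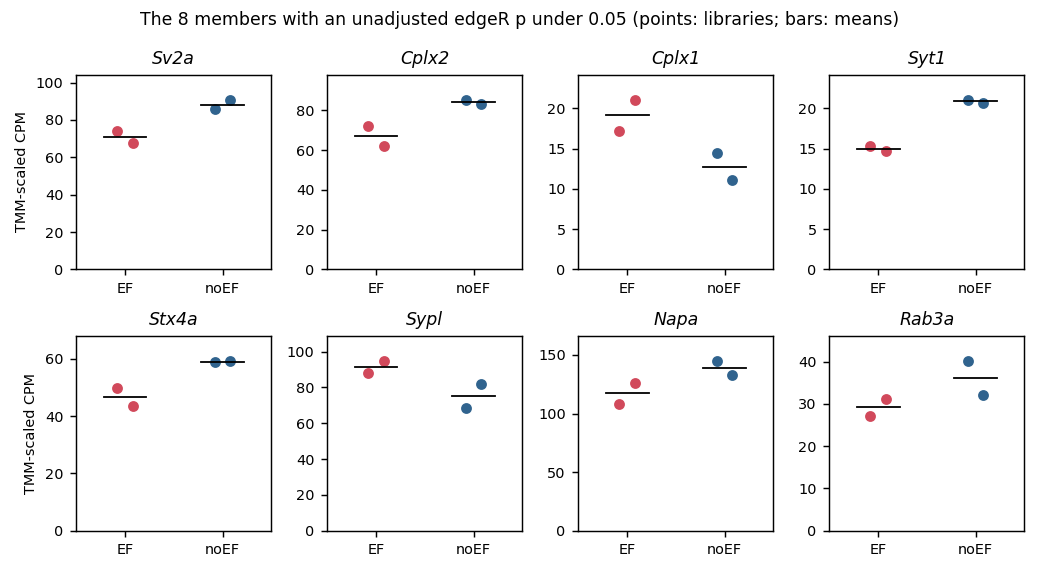
TMM-scaled CPM of the 8 members with the smallest edgeR p, each with its 2 EF libraries left of its 2 noEF libraries (points) and the group means (bars), on axes from 0. Cplx1 and Sypl are higher in both EF libraries and the other 6 genes are lower in both, with the smallest gap in Rab3a (31.1 CPM in EF 2, 32.2 CPM in noEF 2).

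Active zone genes were scarce per length, with a median of 0.411 CPM per kilobase. The giant scaffold Bsn (bassoon; chr9:108096022-108190384) had 3.50 and 2.55 CPM in EF and 3.01 and 2.85 CPM in noEF, or 0.187 CPM per kilobase on average. Its groups overlapped at a log2 fold change of 0.045 ± 0.35 (adjusted p = 0.959, edgeR). Its companion Pclo (piccolo) averaged 6.94 CPM over all libraries. Unc13a, the Munc13 that primes vesicles at most brain synapses, had 11.7 and 13.1 CPM in EF and 15.6 and 13.0 CPM in noEF, overlapping (log2 fold change -0.21 ± 0.18, adjusted p = 0.533). Rims2, a RIM scaffold that ties vesicles to calcium channels, and its short relative Rims3 averaged 8.54 and 5.93 CPM over all libraries. Rims1 had 24 and 36 counts in EF and 3 and 60 in noEF, so that the noEF libraries held both its extremes.

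Unc13b, the Munc13 also found outside the brain (chr4:43058953-43264871), turned on a single library. It had 11.9 and 12.4 CPM in EF and 2.24 and 10.9 CPM in noEF. The values of EF 1, EF 2 and noEF 2 were close, and noEF 1 alone was low. The log2 fold change was 0.88 ± 1.00 (adjusted p = 0.708, edgeR), 0.16 without noEF 1 and 2.43 without noEF 2, the last with an adjusted p of 2.21e-10.

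The ELKS and liprin scaffolds came in paralogs of unequal level. Erc1, the widely expressed ELKS protein, had 24.1 and 21.1 CPM in EF and 25.9 and 25.2 CPM in noEF, with EF lower (log2 fold change -0.18 ± 0.14, adjusted p = 0.489, edgeR). Erc2, the brain form, had 4.09 and 3.87 CPM in EF and 2.73 and 3.00 CPM in noEF, with EF higher (0.47 ± 0.32, adjusted p = 0.404). Neither change passed the test, although the groups of both genes did not overlap. Ppfia1, the common liprin-alpha, had 46.6 and 45.9 CPM in EF and 39.3 and 45.3 CPM in noEF (log2 fold change 0.13 ± 0.12, adjusted p = 0.558, edgeR). Ppfia2, a neuronal liprin-alpha, had 2.75 and 2.75 CPM in EF and 2.49 and 2.08 CPM in noEF (0.27 ± 0.38, adjusted p = 0.730).

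The endocytic members retrieve the vesicle membrane after fusion. Amph (amphiphysin, which bends membrane and recruits dynamin) averaged 64.9 ± 6.95 CPM in EF and 72.8 ± 2.11 CPM in noEF. Synj1 (synaptojanin, the lipid phosphatase that uncoats vesicles) averaged 25.1 ± 1.84 CPM in EF and 27.8 ± 2.16 CPM in noEF. Dnm1, the neuronal dynamin, averaged 7.67 ± 0.303 CPM in EF and 8.03 ± 1.18 CPM in noEF (mean ± SD of 2 libraries each). None of these 3 genes had an unadjusted p under 0.05.

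Within each library, 8 pairs of paralogs set the neuronal gene against its more widely expressed relative, as a log2 ratio of CPM per kilobase. The widely expressed gene was higher in every library in 7 pairs, by 63.7-fold for Napa over Napb, 15.3-fold for Ppfia1 over Ppfia2, 13.5-fold for Stx4a over Stx1a, 11.7-fold for Snap23 over Snap25, 4.25-fold for Erc1 over Erc2, 3.08-fold for Sypl over Syp and 1.70-fold for Vamp3 over Vamp2. The exception was Unc13a, 3.09-fold over Unc13b on the geometric mean of the libraries, a value that noEF 1 raised. The order of each pair was the same when the longest transcript replaced the union of exons.

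Between EF and noEF the ratio shifted without overlap in 4 of the 8 pairs. For single genes, EF lay above noEF in 27.6% and below it in 26.8% of all genes tested, so a lack of overlap is common here. The share over ratios of other gene pairs was not computed. Snap25 over Snap23 was -3.92 and -3.72 in EF and -3.22 and -3.33 in noEF on the log2 scale. Syp over Sypl was -2.17 and -1.75 in EF and -1.16 and -1.40 in noEF. In these pairs the neuronal gene's share was smaller in EF. Unc13a over Unc13b leaned the same way, at 0.82 and 0.94 in EF and 3.65 and 1.10 in noEF. Most of that gap came from noEF 1, the library low in Unc13b. Erc2 over Erc1 went the other way, at -1.82 and -1.70 in EF and -2.50 and -2.33 in noEF. These are descriptions, since 2 libraries against 2 cannot give an exact permutation p under 0.05. The remaining 4 pairs overlapped.

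**Figure D4:**
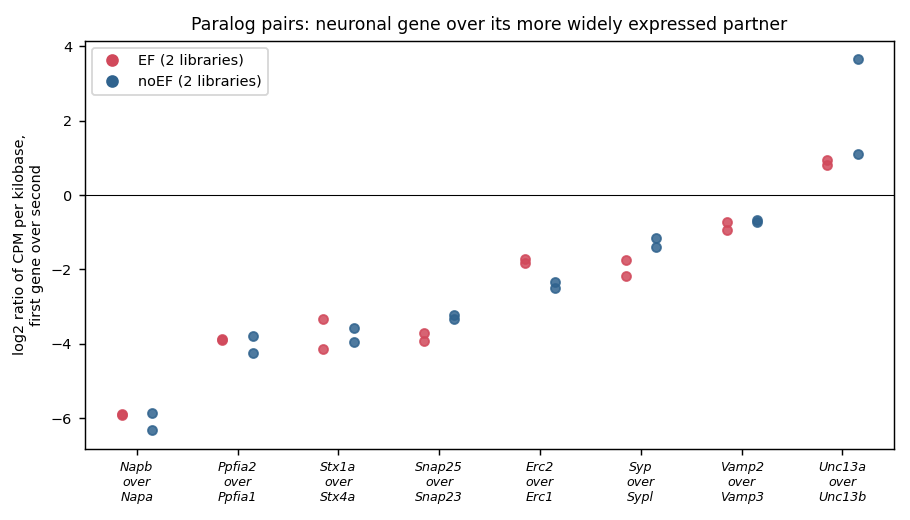
Log2 ratio of CPM per kilobase of the neuronal gene over its more widely expressed partner in each of 8 pairs, with 2 EF points left of 2 noEF points per pair. Ratios lie below 0 in 7 pairs, and the EF points lie below the noEF points for Snap25 over Snap23 and Syp over Sypl and above them for Erc2 over Erc1.

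The DNA just upstream of some members is shown because their levels differ so widely: Syn1, a standard neuronal promoter with a repressor site for REST, the factor that silences neuronal genes in non-neuronal cells; Cplx1 and Sv2a, the neuron-restricted genes nearest the threshold in each direction; and Sypl, a widely expressed relative. The sequences are from RefSeq on GRCm38.p6, 5′ to 3′ on the gene's strand and ending before the annotated gene start. Capitals mark the letters of a motif on either strand: the RE1 core (CAGCACC, any 2 bases, GG, any base, CAG) and the cAMP response element (TGACGTCA) in Syn1, and a GC box (GGGCGG or its reverse complement) in the others.

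Syn1, chrX:20921005-20921168, strand -: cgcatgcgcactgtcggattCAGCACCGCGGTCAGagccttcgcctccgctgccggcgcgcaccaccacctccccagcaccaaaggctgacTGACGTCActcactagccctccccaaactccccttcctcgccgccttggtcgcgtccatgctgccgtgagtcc
Cplx1, chr5:108550028-108550277, strand -: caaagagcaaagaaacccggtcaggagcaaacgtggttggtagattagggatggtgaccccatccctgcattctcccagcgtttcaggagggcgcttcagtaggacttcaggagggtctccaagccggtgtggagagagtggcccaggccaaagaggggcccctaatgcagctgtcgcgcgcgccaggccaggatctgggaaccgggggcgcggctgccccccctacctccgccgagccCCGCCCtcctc
Sv2a, chr3:96180977-96181150, strand +: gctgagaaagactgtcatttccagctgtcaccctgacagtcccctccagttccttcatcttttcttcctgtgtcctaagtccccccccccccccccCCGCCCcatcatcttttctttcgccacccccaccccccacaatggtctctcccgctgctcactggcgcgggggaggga
Sypl, chr12:32953695-32953890, strand +: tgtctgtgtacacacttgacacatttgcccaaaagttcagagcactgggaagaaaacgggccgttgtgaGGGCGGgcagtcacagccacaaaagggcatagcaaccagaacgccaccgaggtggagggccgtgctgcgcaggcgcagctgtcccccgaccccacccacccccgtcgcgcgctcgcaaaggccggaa

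In windows of 250 bases before to 50 after the start, 38 of the 46 members had an entry. The RE1 core was found in Syn1 alone, 1 of 27 neuron-restricted genes (3.7%), beside 0.0666% of all genes and 0.0578% of the 32851 windows. Syn1 was known to carry such a site, so this share is no measure of an excess among the members. The cAMP response element was found in Syn1 and in Napa, beside 2.03% of all genes. A GC box was held by 22 of 27 neuron-restricted genes (81.5%), 4 of 4 mixed genes and 5 of 7 widely expressed genes (71.4%), beside 38.2% of all genes and 35.7% of windows. The letters TATAAA were found in Sv2b alone, beside 15.7% of all genes. In the Syn1 stretch the capital runs do not overlap. A match is a description of letters, not of a bound site.

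The rest of the vesicle cycle was read from 92 related genes, of which 91 were matched by symbol and 80 were tested. edgeR called 1 higher and 4 lower, where 3.83% of all genes were called higher and 4.99% lower. At an unadjusted p under 0.05, 4 were higher and 12 lower, or 20% of those tested, beside 23.8% of all genes. The share called in either direction was under that of all genes (8.82%), and the median log2 fold change was -0.027. Syt16, an atypical synaptotagmin, was the gene that rose, with 17.2 and 17.4 CPM in EF and 9.22 and 12.1 CPM in noEF (log2 fold change 0.70 ± 0.18, adjusted p = 0.0261, edgeR). Ap2s1, the small subunit of the AP-2 clathrin adaptor, had 127 and 146 CPM in EF and 209 and 180 CPM in noEF (-0.51 ± 0.099, adjusted p = 0.00582, edgeR). Atp6v0d1, a subunit of the proton pump that energises vesicle filling, had 164 and 190 CPM in EF and 234 and 228 CPM in noEF (-0.38 ± 0.091, adjusted p = 0.0168). Atp6v0c, the pump's membrane ring subunit, had 414 and 438 CPM in EF and 539 and 525 CPM in noEF (-0.32 ± 0.080, adjusted p = 0.0228). Other subunits of these complexes were not called: Ap2a2 was at a log2 fold change of 0.19, Ap2a1 at 0.11, Ap2b1 at 0.036 and Ap2m1 at -0.090, and of the pump Atp6v1b2 was at -0.15, Atp6v0a1 at -0.096 and Atp6v1a at -0.00019. Vamp5, a SNARE relative of muscle, had 2.27 and 2.84 CPM in EF and 6.24 and 4.97 CPM in noEF (-1.13 ± 0.30, adjusted p = 0.0314). The EF and noEF libraries did not overlap for any of these 5 genes, beside 27.6% of all genes with EF above and 26.8% with EF below. That adds no support, since the genes were picked by calls on the same libraries. All 5 calls were lost when the replicate number was a block and a trend with gene length and GC content was removed (adjusted p of 0.0748 to 0.194, edgeR). The size of the fall in Ap2s1 and Atp6v0d1 moved with that trend, to -0.24 (adjusted p = 0.0408) and -0.19 (adjusted p = 0.109) once it was removed. Single libraries decided several calls: without EF 1 the adjusted p was 0.0596 for Syt16, 0.218 for Atp6v0d1, 0.236 for Atp6v0c and 0.162 for Vamp5. Without EF 2 it was 0.0527 for Syt16 and 0.0585 for Atp6v0c, and without noEF 1 it was 0.165 for Syt16, 0.0659 for Atp6v0c and 0.173 for Vamp5. Ap2s1 was called with each library left out, at adjusted p-values of 1.47e-05 to 0.0457. The call of Atp6v0c was also lost with library totals (0.0724) and with the block alone (0.0712), and that of Vamp5 with limma-voom (0.0614).

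Among relatives outside the 46 members, Rab3b, a second Rab3 GTPase, had 258 and 295 CPM in EF and 280 and 271 CPM in noEF (log2 fold change 0.0040 ± 0.088, adjusted p = 0.987, edgeR). Cplx3, Cplx4, Doc2a and Sncg, all genes of particular neurons, had no count in any library.

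Exons of some members overlap those of a gene on the opposite strand, and the library protocol names no step that keeps strand, so reads there cannot be told apart. The overlap was 9 bases for Syn1 (with Araf), 29 for Rab3a (Mpv17l2), 90 for Syn2 (Timp4), 495 for Unc13a (Colgalt1), 1733 for Syn3 (Timp3) and 2436 for Ppfia2 (Acss3). Timp3 averaged 225 CPM, and the few counts of Syn3 cannot be told apart from its reads there.

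The members nearest the threshold depended on the processing. In 1 alternative, a smooth trend with gene length and GC content was removed from each library's log2 CPM deviations from the gene mean. That brought 4 members past an adjusted p of 0.05, beside 10.3% of all genes: Cplx1 higher (log2 fold change 0.73) and Syt1 (-0.60), Cplx2 (-0.35) and Sv2a (-0.32) lower. Other members moved toward 0 and were not called: Sypl from 0.28 to 0.13, Rab3a from -0.31 to -0.16, Stx4a from -0.33 to -0.21 and Napa from -0.24 to -0.21. With the replicate number as a block in that fit as well, no member was called, beside 3.87% of all genes. Testing without the count filter called 6 (beside 12.2% of all genes), the same 4 with Sypl higher and Stx4a lower, and a filter of 1 CPM in 2 libraries called Cplx1, Sv2a and Cplx2 (beside 11.4%). Library totals called Sypl and Cplx1, both higher (beside 11.5%). edgeR called none with RLE scaling (beside 8.55%) or with the replicate block alone (beside 6.86%). Of the libraries, leaving out EF 2 gave no call (beside 8.39%), leaving out EF 1 or noEF 1 gave Cplx1 (beside 3.76% and 6.18%), and leaving out noEF 2 gave 5 (beside 12.6%), Sypl, Syt7 and Unc13b higher and Cplx2 and Rab3a lower. Across these 13 alternatives, 9 members were called at least once.

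**Figure D5:**
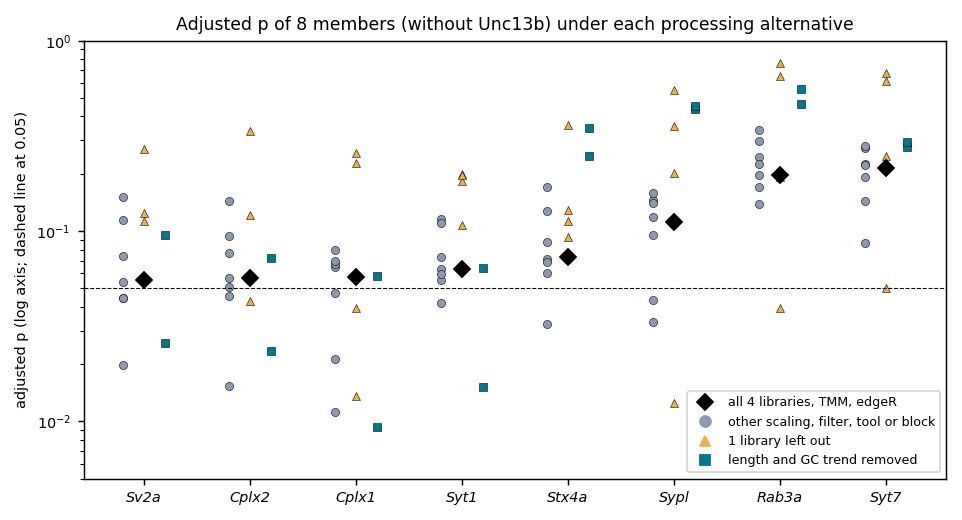
Adjusted p on a log axis for 8 of the 9 members called under at least 1 alternative, without Unc13b, whose value reached 2.21e-10; diamonds give edgeR with TMM on all 4 libraries, circles another scaling, filter, tool or the replicate block, triangles a library left out and squares the length and GC trend removed. Diamonds lie above the dashed line at 0.05 for each gene, and some alternatives lie below it.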

How the data were processed

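RNA-seq of 2 EF and 2 noEF libraries of engineered mouse neural tissue was used. The values deposited by the authors are raw counts, whole numbers for each gene and library. Per the submitters' processing notes, HISAT2 2.0.4, StringTie 2.2.1, DESeq2 1.44.0 and GRCm38 were used. How reads were assigned to genes, and with which strand setting, is not given in the sources used here. Total counts were 33748880 to 34554537 per library. Intervals cover the spread of the fit, and floors (3 counts) cover counting error only.

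Counts were tested with edgeR 4.0.16 in R 4.3.3: filterByExpr (minimum count 10, minimum total 15), TMM, robust glmQLFit and glmQLFTest, Benjamini-Hochberg over 14263 genes, called at an adjusted p under 0.05. The common biological coefficient of variation was 0.161. The test was checked on simulated data with known changes. GENCODE M21 gave coordinates, exon lengths and GC content, and RefSeq gave promoters. Log2 fold changes are printed for the 39 members averaging at least 1 CPM, a limit set after the values were seen.

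The members, classes and lists were chosen with earlier results of these data known. Full values are given for members called, the 6 with the smallest p, a fixed set of standard genes (Syn1, Syp, Syt1, Sv2a, Snap25, Stx1a, Vamp2, Bsn and Slc17a6), both genes of each pair and the 5 highest per kilobase; of the related genes, for those called. Rab3a, Rab3b, Slc18a2 and members given by counts were chosen after their values were seen. One related gene is not reported here.

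Alternatives were RLE scaling, library totals, no filter, 1 CPM in 2 libraries, DESeq2 1.42.0, limma-voom (limma 3.58.1), the replicate number as a block, a length and GC trend (mgcv 1.9.3) removed without and with the block, and each library left out.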

Additional observations from a re-analysis of the deposited data

How the results depend on the processing

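Over all genes, 546 were called higher and 712 lower, a share of 43.4% higher. Library totals in place of TMM gave 1138 higher and 505 lower (69.3% higher), with the median log2 fold change of all genes at 0.095. No filter gave 915 and 1203, the block with the trend removed 232 and 320, and leaving out a library 217 to 790 higher and 337 to 1065 lower. Same-numbered libraries, paired by the sample titles alone, deviated from their group means with a correlation of -0.0898. With 2 libraries a group, both pairs give this same value by construction. It therefore cannot show whether same-numbered libraries share a culture or batch. With the replicate block 410 genes were higher, 568 lower, and 0 members were called.

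Members called higher were 0, against 2 with library totals (Sypl and Cplx1), 2 with no filter, 1 at 1 CPM in 2 libraries, 1 with the trend removed and 0 to 3 with a library left out. Members called lower were 0, against 4 with no filter, 2 at 1 CPM, 1 by DESeq2, 3 with the trend removed and 0 to 2 with a library left out. Without EF 1, Cplx1 was called; without noEF 1, Cplx1; without noEF 2, Sypl, Syt7 and Unc13b higher and Cplx2 and Rab3a lower. Related genes called higher were 1, against 2 with library totals, 0 with block and trend, and 0 to 4 with a library left out; called lower were 4, against 10 with no filter, 7 with the trend removed, 0 with block and trend, and 1 to 7 with a library left out. A lone library was taken to vary like the other group. The causes were not tested.

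The median log2 fold change of neuron-restricted members was 0.012 with library totals and -0.13 to 0.0085 with a library left out. That of widely expressed members was 0.093 with library totals, -0.079 with the trend removed and -0.079 with block and trend.

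The sign of 13 of 39 members turned under some alternative, and none of these was called. With library totals Vamp2 was at 0.059, Dnm1 0.019, Napb 0.012, Rims2 0.066 and Sv2c 0.077. With the trend removed, without and with the block, Snap23 was at -0.074 and -0.074, Nsf at -0.084 and -0.083, Synpr at -0.090 and -0.088 and Bsn at -0.025 and -0.040. With a library left out, ranges were -0.13 to 0.066 (Vamp2), -0.0078 to 0.025 (Snap23), -0.061 to 0.073 (Nsf), -0.55 to 0.10 (Syn1), -0.19 to 0.0085 (Rph3a), -0.21 to 0.089 (Dnm1), -0.068 to 0.048 (Sv2c), -0.21 to 0.20 (Rims2), -0.59 to 0.19 (Rims3), -0.23 to 0.10 (Napb), -0.10 to 0.24 (Synpr), -0.13 to 0.76 (Vamp1) and -0.20 to 0.26 (Bsn). With 2 libraries a group, each spread rests on few values.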
